A study of Mus musculus with 24 samples.

Results

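Oxidative phosphorylation is carried out by 5 protein complexes in the inner mitochondrial membrane. The genes described here are those of its nuclear part, chosen by symbol: names beginning with Nduf, Uqcr, Cox4 to Cox8 or Atp5, and Sdha, Sdhb, Sdhc and Sdhd. They number 92 of the 23306 genes in the table. Complex I accounts for 43 of them, complex II for 4, complex III for 8, complex IV for 20 and complex V for 17. Not every name stands for a subunit: 7 are assembly factors of complex I, 8 are tissue isoforms of complex IV subunits, Cox7a2l is a supercomplex factor, and Atp5s and Atp5sl are not subunits of ATP synthase.

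Complexes I to IV pass electrons from NADH and succinate to oxygen, and complexes I, III and IV pump protons out of the matrix as they do so. Complex V, the ATP synthase, lets the protons flow back and makes ATP. A few subunits of complexes I, III, IV and V are encoded in mitochondrial DNA and the remainder in the nucleus, so that nuclear transcripts have to be translated in the cytosol and their products imported. Newborn neurons of the hippocampus are known to shift from glycolysis towards oxidative phosphorylation as they mature.

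The RNA came from the dentate gyrus of female C57BL6 mice. All animals carried Nes-CreERT2 and the RiboTag allele and were given tamoxifen at 160 mg per kg daily for 5 days at 9 to 11 weeks of age, which adds an HA tag to the ribosomal protein Rpl22 in cells that express the Nestin-driven Cre and in their descendants. The IP libraries hold RNA precipitated with tagged ribosomes, assigned by the labels to immature neurons, and the input libraries hold RNA of the tissue before precipitation. Running mice had a free wheel and sedentary mice a blocked wheel, for 11, 18 or 27 days. Each of the 12 groups has 2 libraries, told apart by letters (a, b for day 11; c, d for day 18; e, f for day 27). The labels state neither the number of mice behind a library nor that replicate libraries are from different animals, and p-values therefore reflect only library-to-library spread, possibly technical.

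Values are TPM, which scale every library to one total, so read depth is unknown. All 10 immature neuron markers and all 10 neural stem cell markers examined were higher in the IP, whereas all 10 interneuron and all 10 microglia markers were lower. These marker counts and those that follow are to be read beside 41.4% higher and 28.5% lower over all genes tested. Of 10 oligodendrocyte markers 8 were lower and 1 was higher, but their sum was higher, with 1174 TPM in the IP, against 658 TPM in the input. Of 10 astrocyte markers 4 were higher and 4 lower, with a sum of 4002 TPM in the IP, against 2905 TPM in the input. Of 10 mature granule neuron markers 2 were higher and 5 lower, with a sum of 1691 TPM in the IP, against 2929 TPM in the input. The input of day 18 stood apart: the mean over olfactory receptor genes, which this tissue should hardly transcribe, was 4.67 to 9.78 TPM there, against 0.518 to 2.58 TPM at day 11, with a median of 0.626 TPM, and 1.74 to 3.66 TPM at day 27. The highest value of day 11 was that of sedentary library a. The noncoding RNA Rpph1 took 17.4% of the running IP library a of day 11, the highest of all libraries.

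Nuclear oxidative phosphorylation genes held a smaller share of the IP than of the input. Together the 92 genes made up 1.09 ± 0.155% of TPM in the IP, with a range of 0.895% to 1.35%, and 1.68 ± 0.255% in the input, with a range of 1.29% to 2.02% (SD, n = 12 each). The 2 ranges overlapped, through the input libraries of day 18. In a bulk sample fewer cells of a type and less RNA per cell cannot be told apart.

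**Figure D1:**
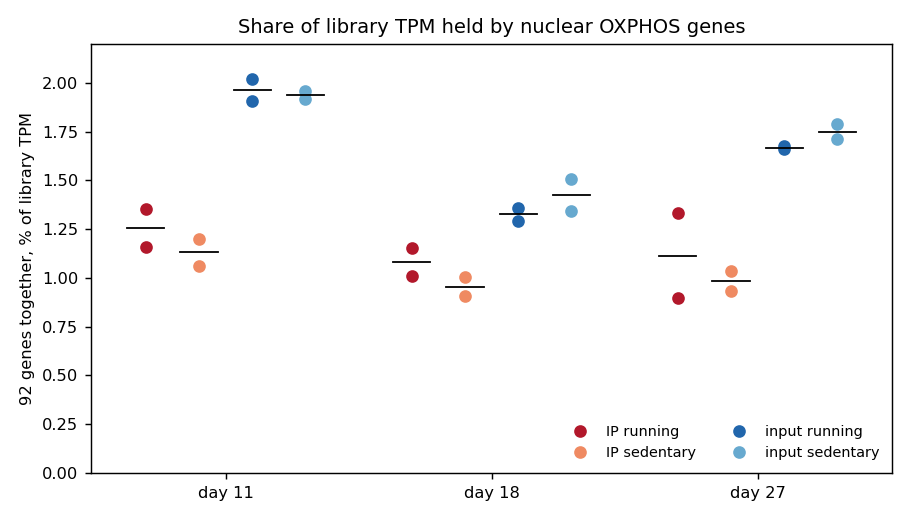
Summed TPM of the 92 genes as a percentage of the library (vertical axis) in each of the 24 libraries, by day, with IP left of input and running left of sedentary; points are libraries and bars the mean of 2. At each day all 4 IP libraries lay below all 4 input libraries.

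Gene by gene, 63 of the 90 genes tested were lower in the IP and 4 were higher, with 23 not past the threshold of 0.05 on the adjusted p (limma on log2(TPM + 1)). Over all genes tested, 28.5% were lower and 41.4% higher. The median difference, IP minus input, was -0.43 on the log2(TPM + 1) scale over the members and 0.12 over all genes tested. Cox8b and Cox8c, isoforms known from muscle and testis, were too low to be tested. The median was -0.71 after median-of-ratios scaling, which put the median of all genes at -0.12. With the trend on transcript length taken out it was -0.21, beside 0.11 over all genes.

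**Figure D2:**
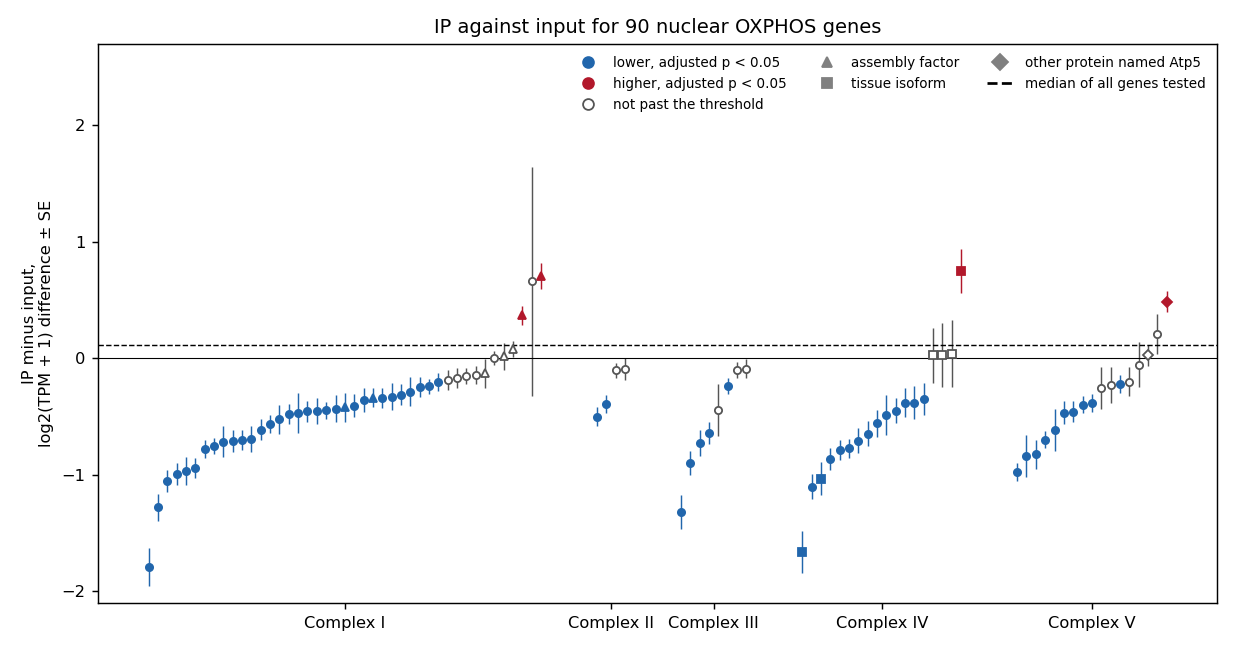
Difference between IP and input on the log2(TPM + 1) scale with its standard error (vertical axis) for the 90 genes tested, sorted within each complex; colour gives the result of the test, shape the role, and the dashed line the median of all genes tested. Of the 90, 63 were lower and 4 higher, and 3 of these 4 were assembly factors or a protein that is not a subunit.

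Complex I, which oxidises NADH, had 32 lower and 2 higher of 43. The accessory subunits, which surround the catalytic core, were lower for 26 of 29, with a median of -0.47. Of the 7 core subunits, which carry the redox centres, 4 were lower, with a median of -0.33. Ndufc1, an accessory subunit (chr3:51404677-51408988, minus strand, GRCm38), had 23.2, 49.8 and 93.0 TPM in the IP (lowest, median, highest of 12) and 78.8, 185 and 255 TPM in the input. The ranges overlapped at their ends, and the difference was -1.79 ± 0.16 (SE; limma adjusted p = 3.36e-08). Ndufb4, an accessory subunit of the membrane arm, had 195, 246 and 485 TPM in the IP against 280, 793 and 990 TPM in the input, a difference of -1.28 ± 0.12 (limma adjusted p = 1.16e-08). Among core subunits Ndufv2, which carries an iron-sulfur cluster, had 56.7, 89.5 and 132 TPM in the IP against 95.8, 221 and 247 TPM in the input, a difference of -1.06 ± 0.09 (limma adjusted p = 5.61e-09).

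The assembly factors of complex I, which help build it but are not part of the finished enzyme, were divided. Their median was 0.02, with 2 higher, 2 lower and 3 not past the threshold. Over all genes tested 41.4% were higher and 28.5% lower, so that the share lower was close to that of all genes. Ndufaf6 had 14.8, 21.5 and 28.4 TPM in the IP against 7.44, 12.6 and 17.8 TPM in the input, and was higher by 0.71 ± 0.11 (limma adjusted p = 1.16e-05). Ndufaf7, a methyltransferase that modifies a core subunit, was higher by 0.37 ± 0.08 (limma adjusted p = 0.000511). Ndufaf2 and Ndufaf4 were the lower pair, at -0.42 and -0.34. Ndufaf7, Ndufaf2 and Ndufaf4 are named because of their values.

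Complex II, the succinate dehydrogenase, is also an enzyme of the citric acid cycle and is wholly nuclear. Its membrane anchors were lower, Sdhd at -0.50 ± 0.08 and Sdhc at -0.39 ± 0.08 (limma adjusted p = 1.89e-05 and 0.000196). Its catalytic subunits did not pass the threshold, though both did after median-of-ratios scaling, Sdha at -0.39 and Sdhb at -0.37 (limma adjusted p = 8.71e-05 and 0.000553). Sdha also passed with the length trend taken out, at -0.15, and without the day 18 libraries, at -0.26 (limma adjusted p = 0.0331 and 0.0146). Sdha, the flavoprotein, averaged 231 ± 19.7 TPM in the IP, against 251 ± 42.4 TPM in the input, and Sdhb, the iron-sulfur subunit, 95.4 ± 14.0 TPM in the IP, against 102 ± 21.9 TPM in the input (SD, n = 12 each). For both, the ranges of the fractions overlapped.

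Complex III passes electrons to cytochrome c, and 5 of its 8 members were lower. Uqcrb, a small subunit (chr13:66900617-66905378, minus strand, GRCm38), had 146, 225 and 414 TPM in the IP against 294, 653 and 925 TPM in the input, a difference of -1.32 ± 0.15 (limma adjusted p = 2.2e-07). Uqcrq, another small subunit, differed by -0.90 ± 0.10 (limma adjusted p = 2.14e-07). The large core proteins stood close to the input over the days together. Uqcrc2 averaged 94.0 ± 14.1 TPM in the IP, against 100.2 ± 13.4 TPM in the input. Its difference of -0.09 ± 0.08 did not pass the threshold, but was -0.37 after median-of-ratios scaling (limma adjusted p = 9.09e-05). Uqcrc1 differed by -0.10, with -0.49, 0.35 and -0.15 at days 11, 18 and 27.

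Complex IV reduces oxygen, and all 11 of its general subunits were lower, with a median of -0.56. The count of 11 was 6 with the length trend taken out, where Cox5a, Cox6a1, Cox7a2, Cox8a and Ndufa4 did not pass, 7 without the day 18 libraries, 8 without the letter a libraries of day 11, 9 as a share of protein-coding genes and 10 without the trend and robust options of limma. With single libraries left out it was 9 to 11, the calls lost being those of Cox7a2 and Cox8a, and all 11 differences stayed below 0 in each of these fits. Cox6c, the most abundant member in both fractions, had 425, 628 and 1417 TPM in the IP against 921, 1600.2 and 1971 TPM in the input. The difference was -1.10 ± 0.11 (limma adjusted p = 3.7e-08), and the ranges overlapped. Cox7a2 had the smallest difference of the 11 at -0.35 ± 0.14 (limma adjusted p = 0.0352). It missed the threshold in 11 of the 24 fits that left out 1 library, with an adjusted p of up to 0.0769, and in 5 other alternatives, from 0.052 without the trend and robust options to 0.445 with the length trend taken out. Cox7a2l, described as a factor of supercomplexes of complexes III and IV, differed by -0.77 ± 0.08 (limma adjusted p = 7.55e-08).

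The isoform pairs of complex IV did not all go one way. Cox4i1, the general form of the regulatory subunit, averaged 273 ± 38.6 TPM in the IP, against 472 ± 72.0 TPM in the input, whereas Cox4i2, the form known from lung and from low oxygen, averaged 3.73 ± 1.60 TPM in the IP, against 1.84 ± 1.03 TPM in the input (SD, n = 12 each). Cox4i2 was higher by 0.75 ± 0.19 (limma adjusted p = 0.00146). Cox6a2, a form known from heart and skeletal muscle, averaged 1.60 ± 0.853 TPM in the IP, against 4.21 ± 1.20 TPM in the input and was lower, at -1.03 ± 0.14, beside -0.38 ± 0.12 for its general form Cox6a1. Cox7b2, known from testis, was lower, at -1.67 ± 0.18. Cox6b2, Cox7a1 and Ndufa4l2 lay at 1 to 3 TPM on average in both fractions and did not pass the threshold.

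Complex V had 10 lower and 1 higher of 17. The membrane and stalk part was lower for 7 of 10, and the F1 part, which makes ATP, for 3 of 5. Atp5l, subunit g of the membrane part (chr9:44912557-44920742, minus strand, GRCm38), had 148, 173 and 225 TPM in the IP against 294, 360 and 425 TPM in the input. Every IP library lay below every input library, and the difference was -0.97 ± 0.08 (limma adjusted p = 1.44e-09). Such a complete gap held for 4 of the 90 genes, Ndufa12, Ndufa13, Ndufb5 and Atp5l, and for 2.08% of all genes tested. Atp5h, the stalk subunit d, averaged 574 ± 167 TPM in the IP, against 1037 ± 365 TPM in the input (SD, n = 12 each), and Atp5k, subunit e, differed by -0.84 ± 0.18. The 3 genes for the c subunit of the rotor, Atp5g1, Atp5g2 and Atp5g3, encode one mature protein and did not pass the threshold, at -0.05 ± 0.19, 0.21 ± 0.17 and -0.23 ± 0.16. Atp5g2 passed as higher, at 0.35, without running input library a of day 11, at 0.44 without the letter a libraries of day 11 and at 0.46 with the length trend taken out (limma adjusted p = 0.0221, 0.00183 and 0.0105). Atp5g3 passed as lower, at -0.36, without running input library b of day 11 and at -0.51 after median-of-ratios scaling (limma adjusted p = 0.00751 and 0.00466). Atp5sl, whose product is not an ATP synthase subunit, was higher by 0.49 ± 0.09 (limma adjusted p = 6.93e-05).

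Ndufs5 needs its copy to be read. This accessory subunit of complex I (chr4:123712710-123718202, minus strand, GRCm38) was listed at 0 in 8 of 12 IP and 9 of 12 input libraries, while the processed pseudogene BC002163, 99.4% identical over the coding sequence, carried the signal. Summed, the pair had 181 ± 33.8 TPM in the IP, with a range of 138 to 256, against 425 ± 88.2 TPM in the input, with a range of 282 to 549 (SD, n = 12 each). The ranges of the sum did not overlap. Cox7c has such a copy in Gm10012, and that pair summed to 129 ± 20.05 TPM in the IP, against 246 ± 55.6 TPM in the input. In all, 32 members have at least 1 pseudogene copy of at least 90% identity over at least 80% of the coding sequence, Atp5l as many as 13, so their values are uncertain to the extent that reads were shared. Of the members with a copy 27 of 32 were lower, and of those without 36 of 58, beside 28.5% over all genes tested. The part of transcript length in this contrast was not tested.

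**Figure D3:**
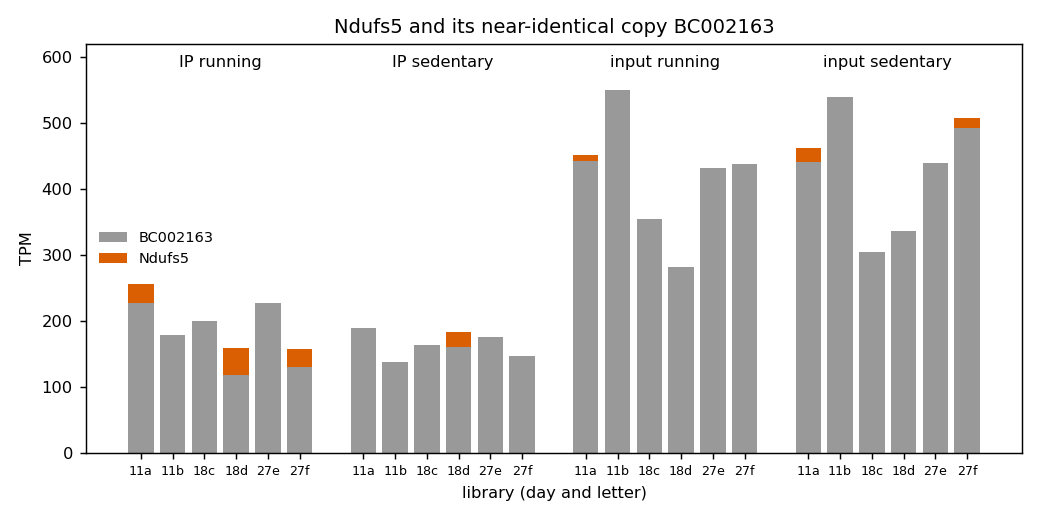
TPM of Ndufs5 (orange) stacked on that of its near-identical copy BC002163 (grey) in each of the 24 libraries, named by day and letter, with IP left of input. Ndufs5 itself is listed at 0 in 8 IP and 9 input libraries, and the sum is lower in each of the 12 IP libraries than in any input library.

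Transcript length moved with the difference. The members are short, with a median spliced length of 745 bases against 2570 bases for the other protein-coding genes tested. Between 500 and 1000 bases the median difference was -0.47 for 44 members, of which 37 were lower, and -0.19 for 1406 other genes, of which 41.3% were lower. Between 2000 and 3000 bases it was -0.17 for 8 members and 0.14 for 4170 other genes. With the length trend taken out of each library 47 members were lower and 5 higher, beside 29.1% lower and 41.2% higher over all genes tested in that fit. The part of length in the difference was not otherwise tested.

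**Figure D4:**
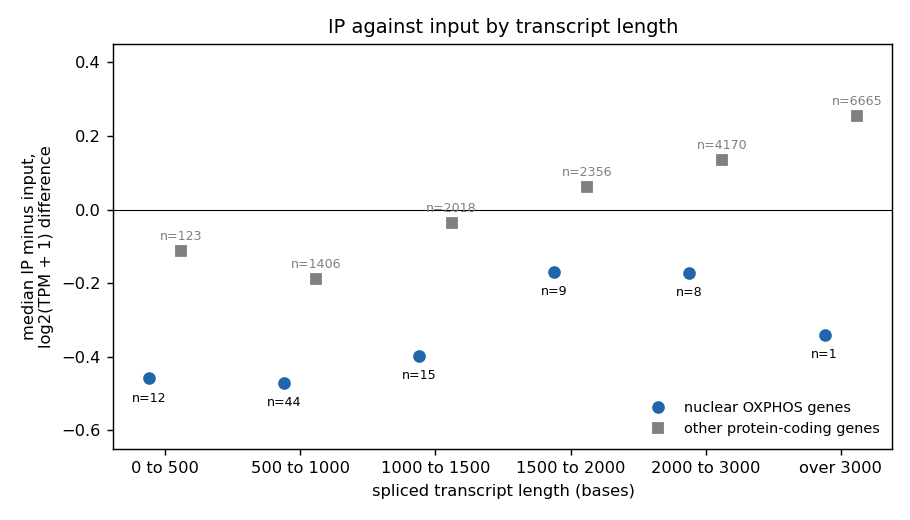
Median difference between IP and input on the log2(TPM + 1) scale (vertical axis) by spliced transcript length in bases (horizontal axis) for the members (circles) and for other protein-coding genes (squares), with the number of genes at each point. Members lay below other genes in each length class; the last class holds 1 member.

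Other gene lists of the mitochondrion and of energy metabolism are given by their counts, to be read beside the 28.5% lower and 41.4% higher over all genes tested. Of 76 mitochondrial ribosomal protein genes 17 were higher and 16 lower, with a median of 0.06. Of 36 assembly factors outside the symbol rule 8 were higher and 11 lower, and the copper chaperone Cox17 was lower, at -1.53 ± 0.12. Of 20 genes of the citric acid cycle and pyruvate entry 1 was higher and 11 lower, the higher being Idh2, mitochondrial isocitrate dehydrogenase, with 97.1 ± 17.7 TPM in the IP, against 36.0 ± 5.77 TPM in the input (SD, n = 12 each). Of 20 glycolysis genes 2 were higher and 13 lower, with a median of -0.31, and of 84 cytosolic ribosomal protein genes, also short, 6 were higher and 39 lower, with a median of -0.19. Cytochrome c, Cycs, was lower, at -1.13 ± 0.08. Of 14 regulators of mitochondrial biogenesis 9 were higher and 2 lower. Gabpa and Nrf1, transcription factors for respiratory genes, were higher by 0.73 ± 0.08 and 0.62 ± 0.08, while the coactivator Ppargc1a was lower, at -0.43 ± 0.07 (limma adjusted p = 6.04e-08, 1.22e-06 and 2.82e-05).

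Since Nrf1 and Gabpa are known to act through sites close to the start of respiratory genes, the promoters of the members were searched for their letters. RefSeq windows (GRCm38.p6) of 250 bases before to 50 bases after the start were at hand for 73 of the 92. The Nrf1 letters GCGCA and GCGC with 1 base of any kind between them, read on both strands, stood in 19 of the 73 (26.0%), in 8.23% of the other genes tested and in 5.19% of all genes with a window. The letters CCGGAAG of the ETS family, to which Gabpa belongs, stood in 17 of the 73 (23.3%) on either strand, in 14.4% of the other genes tested and in 9.93% of all genes. Both were found in 4 members and neither in 41, and matches of both shared a base in 0 of the 4. The median difference between IP and input was -0.40 for 19 members with the first motif and -0.45 for 53 without. The 5 stretches below lie upstream of members that were lower in the IP, or, for Ndufs5, lower with its copy, and show how each motif sits; they read 5′ to 3′ along the gene, with the motif letters on either strand in capitals. Their positions are chr4:123718235-123718324 for Ndufs5, chr4:24897930-24898019 for Ndufaf4, chr9:44920908-44920992 for Atp5l, chr10:80406841-80406927 for Uqcr11 and chr4:40279607-40279671 for Ndufb6, with Ndufaf4 on the plus strand and the others on the minus strand. A match is a description of letters and not of a bound site.
Ndufs5: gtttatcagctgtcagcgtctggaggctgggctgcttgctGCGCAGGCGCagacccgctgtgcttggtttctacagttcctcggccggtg
Ndufaf4: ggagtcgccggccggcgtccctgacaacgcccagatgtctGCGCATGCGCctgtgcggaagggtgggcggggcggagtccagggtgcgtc
Atp5l: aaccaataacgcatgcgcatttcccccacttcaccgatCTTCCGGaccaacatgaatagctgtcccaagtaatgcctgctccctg
Uqcr11: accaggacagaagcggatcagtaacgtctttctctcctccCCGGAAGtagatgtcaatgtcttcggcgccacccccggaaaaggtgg
Ndufb6: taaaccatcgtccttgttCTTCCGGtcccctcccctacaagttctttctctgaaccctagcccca

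Counted by day, the members lower in the IP outnumbered those higher. At day 11, 52 were lower and 2 higher, beside 12.1% lower and 29.2% higher over all genes tested. At day 18, 35 of 90 were lower and 4 higher, beside 31.0% lower and 33.0% higher, so that the share lower was close to that of all genes. At day 27, 44 were lower and 3 higher, beside 14.3% lower and 34.6% higher. The median differences were -0.49, -0.32 and -0.44 over the members, and 0.20, 0.02 and 0.23 over all genes tested. For 9 members the difference itself varied between days, beside 37.4% of all genes tested (F test in limma). The count at day 18 was 57 with median-of-ratios scaling, beside 39.9% lower over all genes in that fit. With the length trend taken out 17 were lower and 11 higher, beside 31.9% lower and 32% higher over all genes in that fit. Olfactory receptor transcripts were high in the input of day 18, and their part in the result was not tested.

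Within the input, 34 of the 90 members tested were lower and 2 higher at day 18 than at day 11, beside 11.4% lower and 37.8% higher over all genes. The most abundant of these, Cox6c and Atp5h, differed by -0.82 and -1.02. At day 27 against day 18, 21 were higher and 2 lower, beside 10.4% higher and 26.7% lower over all genes. No member passed for day 27 against day 11, where 0% of all genes did (limma). At an unadjusted p under 0.05 were 9 members, beside 2917 of 20462 genes. The day and any batch of that day cannot be told apart. In the following fits with 1 library left out, the share over all genes was not counted. The count for day 27 against day 18 fell to 9 without running library c of day 18, 13 without running library d of day 18, 13 without running library e of day 27, 8 without running library f of day 27, 8 without sedentary library c of day 18, 15 without sedentary library e of day 27 and 7 without sedentary library f of day 27.

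Within the IP the few members that changed with time were mostly lower later. At day 18 against day 11, 6 were lower and 1 was higher, beside 1.10% lower and 4.56% higher over all genes. At day 27 against day 11, 5 were lower and none higher, beside 3.88% lower and 11.4% higher over all genes. Ndufc2, an accessory subunit of the membrane arm of complex I, had 234, 214, 179 and 211 TPM at day 11, 132, 108, 134 and 104 TPM at day 18, and 173, 102, 145 and 119 TPM at day 27. Its day 11 values lay above all later ones, with differences of -0.81 ± 0.16 for day 18 and -0.65 ± 0.16 for day 27 against day 11 (limma adjusted p = 0.0117 and 0.0132). Atp5j, coupling factor 6 of the stalk of complex V, differed by -0.63 ± 0.16 and -0.62 ± 0.16 (limma adjusted p = 0.0350 and 0.0199). Ndufa6, an accessory subunit, Cox4i2 and Atp5h were the other members lower at day 27 against day 11, at -0.48, -0.89 and -0.64. In the same comparison 7 of 10 mature granule neuron markers and 10 of 20 glycolysis genes were higher. Lower were 3 of 10 neural stem cell markers, 3 of 10 microglia markers and 2 of 10 immature neuron markers. Of 83 cytosolic ribosomal protein genes tested 29 were lower and 1 was higher, with a median of -0.40, and 11 were lower at day 18 against day 11. The part of these lists in the members' values was not tested. For day 27 against day 18 no member passed, beside 0.122% of all genes (limma). At an unadjusted p under 0.05 were 16 members, beside 2293 of 17282 genes.

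These counts rest on single libraries. Without the 2 IP libraries with the letter a of day 11 no member passed for either day against day 11. For day 27 against day 11 the call of Ndufc2 was lost without running library a of day 11 or sedentary library f of day 27, and that of Atp5j without either library a of day 11 or either library f of day 27. For day 18 the count was 1 without running library a of day 11, 11 without running library b of day 11, 3 without running library c of day 18, 1 without running library d of day 18, 11 without running library e or f of day 27, 1 without sedentary library a of day 11 and 0 without sedentary library d of day 18. For day 27 it was 0 without running library a of day 11, 12 without running library b of day 11, 24 without running library e of day 27, 2 without running library f of day 27, 1 without sedentary library a of day 11, 8 without sedentary library c or d of day 18 and 2 without sedentary library f of day 27. For day 27 against day 18 it was 2 without running library e of day 27. The share of all genes past the threshold in these fits was not counted. Whether these counts moved with that share is therefore unknown.

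Running changed no member past the threshold. In the IP 0 of 90 passed, beside 0.00579% of all genes tested (limma). At an unadjusted p under 0.05 were 9 of the 90 members, beside 2453 of all 17282 genes tested. The median difference, running minus sedentary, was 0.09 over the members and -0.07 over all genes tested, and 67 of 90 were above 0, beside 36.3% of all genes tested. That median was 0.01 without running library e of day 27 and 0.18 without running library f of day 27. Within days 11, 18 and 27 no IP member passed either, beside 0%, 0% and 0.0289% of all genes. Members at an unadjusted p under 0.05 numbered 3, 6 and 6 of 90, beside 832, 1550 and 1714 of 17282 genes. In the input 0 of 90 passed, beside 0% of all genes. At an unadjusted p under 0.05 were 0 members, beside 858 of 20462 genes. The median was -0.05, beside 0.00 over all genes, and was 0.01 without running library b of day 11.

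The lowest p in the IP belonged to Ndufa4, a small subunit first assigned to complex I and now to complex IV. Its running libraries had 166, 152, 209, 150, 156 and 113 TPM from day 11 to day 27, and its sedentary libraries had 152, 123, 121, 110, 101 and 88.4 TPM. At days 18 and 27 both running libraries lay above both sedentary ones, and over all days the ranges of the activities overlapped. The difference was 0.44 ± 0.11 with a limma adjusted p of 0.162. Ndufb5, an accessory subunit of complex I, averaged 67.7 ± 5.99 TPM in running and 55.5 ± 3.56 TPM in sedentary IP libraries (SD, n = 6 each), and the running libraries reached down to 59.9 TPM, just above the highest sedentary one at 59.8 TPM. Its difference was 0.28 ± 0.09 (limma adjusted p = 0.210). Ndufb5 was picked by its p, and how many of all genes show such a gap was not counted. Atp5f1, the stalk subunit b, and Cox5a, a matrix-side subunit of complex IV, differed by 0.32 ± 0.10 and 0.33 ± 0.11 (limma adjusted p = 0.212 and 0.227).

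In the input the same 4 genes did not pass either. Ndufa4 averaged 171 ± 52.3 TPM in running and 204 ± 44.0 TPM in sedentary input libraries (SD, n = 6 each). The running effect in the IP less that in the input was 0.71 for Ndufa4, with a limma adjusted p of 0.803. No member passed for this difference, beside 0% of all genes tested. At an unadjusted p under 0.05 were 4 members, beside 1166 of 19507 genes. The lowest p for running in the input belonged to Cox7a1, a muscle isoform near 2 TPM, Ndufv2, Cox7c and Ndufb4, all with a limma adjusted p of 0.953. Summed immature neuron markers had 2291 ± 660 TPM in running and 1627 ± 381 TPM in sedentary IP libraries, and summed astrocyte markers 3495 ± 589 TPM in running and 4508 ± 647 TPM in sedentary ones (SD, n = 6 each). The ranges of the activities overlapped for both, and 0 of 10 markers passed in either list (limma). At an unadjusted p under 0.05 were 7 immature neuron and 8 astrocyte markers, beside 2453 of 17282 genes tested in the IP. The part of these markers in the values above was not tested.

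**Figure D5:**
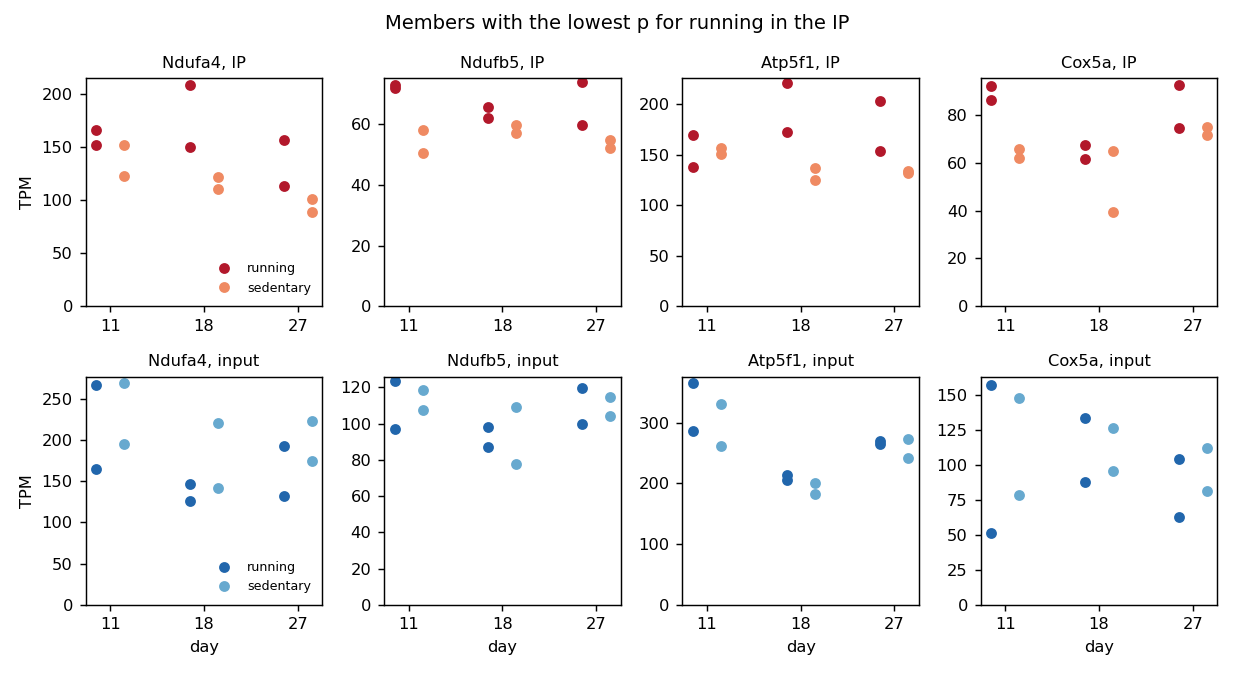
TPM (vertical axis) of the 4 members with the lowest p for running in the IP, by day (horizontal axis), in IP libraries (top) and input libraries (bottom), with running left of sedentary; each point is a library. For Ndufb5 all 6 running IP libraries lay above the 6 sedentary ones, by a margin from 59.8 to 59.9 TPM, and in the input the activities overlapped. The genes were picked by p, and how many of all genes show such a gap was not counted.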

How the data were processed

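Per the submitters' processing notes, the authors used RSEM and the mm10 build; which aligner, RSEM version, gene models and strandedness were used is not given in the sources used here. The authors deposited 1 table of TPM for 23306 genes in 24 libraries, each summing to about 1000000; TPM keeps no depth, so precision rests on the spread between libraries. Members and gene lists were chosen with earlier results of these data known. Differences were tested by limma 3.58.1 under R 4.3.3, with group means fitted by lmFit and eBayes run with its trend and robust options. Values entered as log2(TPM + 1), which understates changes of low genes, and genes averaging 1 TPM or more entered (19507 in all libraries, 17282 in IP, 20462 in input), with Benjamini-Hochberg adjustment over all of them. The code was tested on simulated data. Members named with values were, per complex, the highest in the input and those with the most negative and most positive difference, those of lowest p for running and for day 27 against day 11, and isoform groups. GENCODE M21 gave coordinates and lengths for 91 members; BLAST 2.17.0 found copies. Alternatives covered scaling, length, pseudocount, filter, variance model, pairing and left-out libraries.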

Additional observations from a re-analysis of the deposited data

Results flagged for a closer look

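For 9 members the difference between IP and input itself differed between the days (F test in limma), as it did for 37.4% of all genes tested. Uqcrc1, a core protein of complex III, had differences of -0.49, 0.35 and -0.15 at days 11, 18 and 27 (adjusted p = 0.00399). Sdha had -0.39, 0.21 and -0.13 (adjusted p = 0.019), Ndufa9, an accessory subunit of complex I, -0.41, 0.14 and -0.19 (adjusted p = 0.0368), and Ndufaf2 -0.60, 0.33 and -0.997 (adjusted p = 0.00901). Atp5f1 had -1.004, -0.32 and -0.77 (adjusted p = 0.0179), Atp5h -0.94, -0.21 and -1.31 (adjusted p = 0.0235), Ndufv2 -0.97, -0.70 and -1.50 (adjusted p = 0.0255) and Ndufb4 -1.38, -0.75 and -1.71 (adjusted p = 0.0347). In these 8 genes day 18 was the day with the least negative or the only positive difference. Cox7b2 went the other way, with -0.59, -2.73 and -1.68 (adjusted p = 0.00472); it averaged 2.26 TPM in the IP, against 4.25 TPM in the input at day 11, and 1.73 TPM in the IP, against 18.0 TPM in the input at day 18. The count of 9 was 0 without the libraries of day 18. The share over all genes was not counted in this fit or in those that follow. It was 5 without running IP library c or sedentary input library c of day 18, 16 without running input library b of day 11 or sedentary input library d of day 18, and 24 without running IP library e of day 27. The high olfactory receptor level in the input of day 18 moved with these differences, and its part was not tested.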

How the results depend on the processing

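The count of members lower in the IP ranged from 47 to 80 over scaling, length, pseudocount, filter, variance and pairing alternatives and from 59 to 68 with single libraries left out. The count of 80 came with median-of-ratios scaling, beside 41.2% lower over all genes. The count of 47 came with the length trend taken out, beside 29.1% lower over all genes. The median difference was -0.71 with median-of-ratios scaling, beside -0.12 over all genes, and -0.21 with the length trend taken out, beside 0.11. At day 18 the count lower was 57 with median-of-ratios scaling, beside 39.9% of all genes, and 17 with the length trend taken out, beside 31.9%. The count of members whose difference varied between days was 25 with the length trend taken out, 0 without day 18, 17 without the letter a libraries of day 11 and 5 with a replicate block, and 5 to 24 with single libraries left out. In the IP, day 18 against day 11 gave 4 with the length trend taken out, 0 with plain eBayes, 0 without the letter a libraries and 0 to 11 with single libraries left out; day 27 against day 11 gave 11 as a share of protein-coding genes, 3 with the length trend taken out, 9 with a minimum mean of 5 TPM, 1 with plain eBayes, 0 without the letter a libraries, 2 in the fit of all 24 libraries and 0 to 24 with single libraries left out; day 27 against day 18 gave 0 to 2. In the input, day 27 against day 11 gave 2 without the letter a libraries, 1 in the fit of all 24 libraries and 0 to 1 with single libraries left out, and day 27 against day 18 gave 7 to 26. The cause was not tested. Where no share over all genes stands beside a count, it was not counted. Letters do not mark pairs by the labels; deviations of IP and input libraries of one letter correlated at -0.28 to -0.01, and of running and sedentary libraries at 0.05 to 0.27. With letters as a replicate block 1 member, Ndufa4, passed for running in the IP (limma adjusted p = 0.0198). For single members, 655 of 701 alternatives kept the side of the threshold, 35 lost it, 11 gained it and 0 reversed. Depth is unknown, and genes near 1 TPM are the least certain.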
